A study of Homo sapiens with 12 samples.

Results

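The genes described here are 10 members of the BCL2 family, which decides whether a cell survives or dies by apoptosis. They were found by their gene names among the 34687 rows of the expression table, and all 10 had a row. The set holds 3 pro-survival genes (BCL2, BCL2L1 and MCL1), 1 gene of a pore former (BAK1), and 6 BH3-only genes (BID, BIK, BMF, BCL2L11, PMAIP1 and BAD).

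BCL2 family proteins act at the outer membrane of mitochondria. The pore formers BAX and BAK1 open that membrane and release cytochrome c, which switches on caspases, while BCL2, BCL2L1 (BCL-XL) and MCL1 hold the pore formers in check. BH3-only proteins are the sensors of stress: they bind the pro-survival proteins, and some of them activate the pore formers directly. Many carcinoma cells rely on BCL2L1 or MCL1 to stay alive, and much of the family's control acts on the proteins and is not visible in RNA.

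RNA was measured on Illumina HumanHT-12 BeadChips in HCT116 cells, a human colorectal cancer line, and in PANC1 cells, a human pancreatic ductal carcinoma line. Cells of each line received 0.05% DMSO (the solvent control), ICG-001 at 10 uM or C646 at the same dose, and were collected after 12 or 96 h. ICG-001 blocks the interaction of the co-activator CBP with β-catenin, and C646 inhibits the acetyltransferases p300 and CBP. All 12 groups were thus cells of an unmodified line in culture, and each group is represented by 1 column, which holds the authors' mean of 2 arrays (3 arrays for PANC1 ICG-001 12 h). No replicate values were used, so the differences below have no error and no test. Background rows, at or under the detection limit (defined below) in all 6 columns of a line, numbered 15532 in HCT116 and 15350 in PANC1. Their log2 ratios between columns of that line had an SD of 0.0619 to 0.0732. By the study's methods, cultures for 96 h were started at lower density than those for 12 h and were passaged, so time and culture history cannot be told apart. Each value is an average over a culture, and a change in every cell cannot be told from a change in which cells were present.

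The signals are intensities on a linear scale with background left in. A gene was called above the detection limit of a column when its signal passed the upper 1% point of a normal curve laid over the background values. This limit lay at signals between 142.7 and 144.7 for HCT116 columns, and for PANC1 columns it lay between 135.6 and 137.9. From 43.6% to 47.3% of the rows passed it. Signals were compared within a gene and within a cell line only, because brightness differs between probes and the sorted values of the lines did not coincide. Of markers of the tissues of origin, EPCAM, CDH1 and CDX2 were above the limit in all HCT116 columns, while CDH17, LGALS4, VIL1 and CDX1 were above it in none. All 8 markers of pancreatic duct carcinoma were above the limit in all PANC1 columns, and 6 of them also in all HCT116 columns. EPCAM, CDH1 and CDX2 were above the limit in PANC1 as well. The blood markers PTPRC and CD3E were above the limit in no column of either line.

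In HCT116 cells 7 members were above the limit in all 6 columns, 1 (BCL2) in some of them, and 2 (BMF and BCL2L11) in none. In PANC1 cells 7 members were above the limit in all columns and 3 (BCL2, BIK and BMF) in none. The members that were measured in both lines in every column were BCL2L1, MCL1, BAK1, BID, PMAIP1 and BAD. BIK was measured only in HCT116, and BCL2L11 came above the limit only in PANC1, barely.

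**Figure D1:**
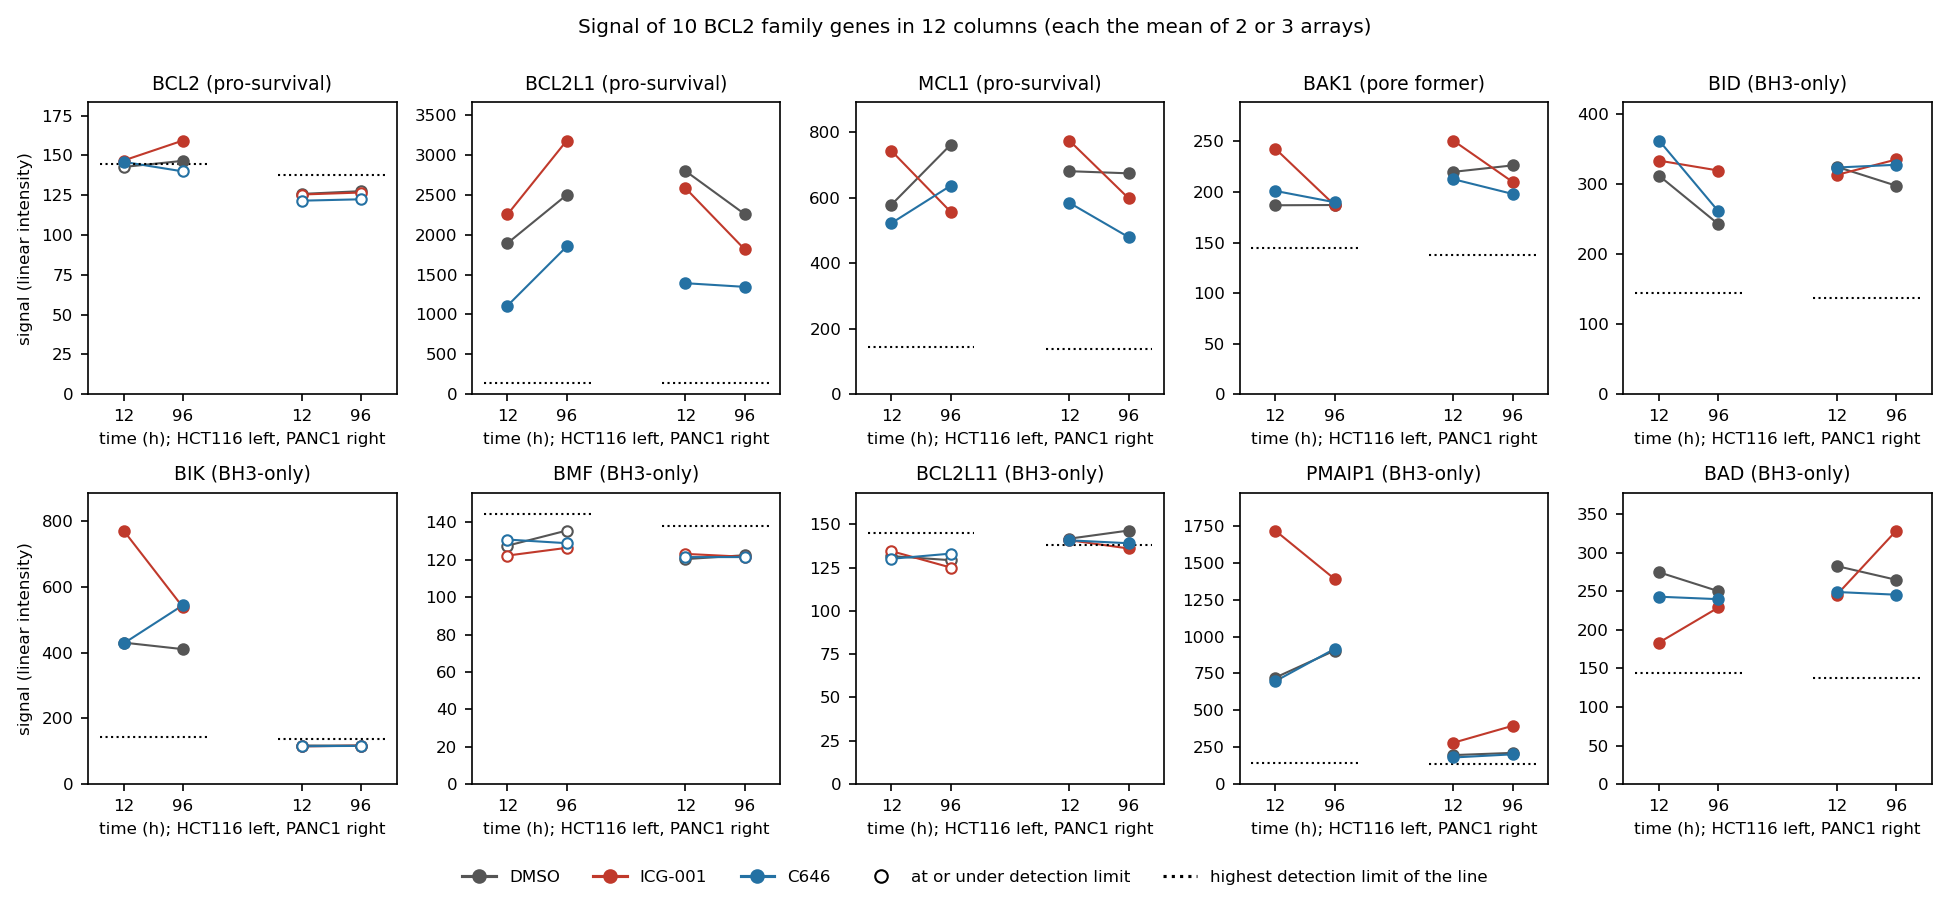
Signal of each member (linear intensity from 0, y axis) at 12 and 96 h (x axis) in HCT116 (left pair of each panel) and PANC1 (right pair). Points are single columns, lines join the time points of a treatment, open points lie at or under the limit of their own column, and the dotted line is the highest limit of that line's columns. PMAIP1 was highest in both ICG-001 columns of each line, at 1719 and 1391 in HCT116, and BCL2L1 was lowest in both C646 columns of each line.

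The clearest member with ICG-001 was PMAIP1, which encodes NOXA, a short BH3-only protein that binds MCL1 and marks it for destruction. In HCT116 its signal was 721.5 in DMSO, 697 in C646 and 1719 in ICG-001 at 12 h. At 96 h it was 904.8 in DMSO, 916.3 in C646 and 1391 in ICG-001. Both ICG-001 columns lay above all other HCT116 columns, and C646 lay close to DMSO at both times. Over DMSO, PMAIP1 was 2.38-fold higher at 12 h and 1.54-fold higher at 96 h with ICG-001, or 1.25 and 0.62 on the log2 scale. Of all genes above the limit in those columns, 0.668% at 12 h and 9.03% at 96 h lay as far from DMSO or farther, in either direction. The log2 ratio of C646 over DMSO was -0.05 and 0.02.

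In PANC1 PMAIP1 was again brightest with ICG-001. Its signal was 196.4 in DMSO, 180.2 in C646 and 280.0 in ICG-001 at 12 h. At 96 h it was 211.5 in DMSO, 201.7 in C646 and 394.9 in ICG-001. Again both ICG-001 columns lay above the other 4, and here the later of them was the brighter. The log2 ratio of ICG-001 over DMSO was 0.51 at 12 h, short of 1.5-fold, and 0.90 at 96 h, which is 1.87-fold and was matched or passed by 2.00% of genes. After background correction by normexp the 12 h ratio was 0.80, past 1.5-fold. Without a drug, the DMSO columns of PANC1 differed by 0.11 for this gene, and those of HCT116 by 0.33, 96 h over 12 h.

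The 250 bases before the RefSeq start of PMAIP1 (GRCh38.p14, chr18:59899746-59899995, plus strand) are shown because this was the member past 1.5-fold with ICG-001 in both lines. Capitals mark every match to the motifs searched.
PMAIP1: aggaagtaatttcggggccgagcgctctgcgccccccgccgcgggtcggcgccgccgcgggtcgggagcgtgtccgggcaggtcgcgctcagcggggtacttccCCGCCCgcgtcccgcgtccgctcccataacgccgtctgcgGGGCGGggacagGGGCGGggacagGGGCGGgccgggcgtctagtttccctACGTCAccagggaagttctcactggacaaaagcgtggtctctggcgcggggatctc
The match at 56 to 51 bases before the start is a CRE half-site (TGACGT, read on the other strand), a site for ATF and CREB factors. The other capitals are 4 GC boxes (GGGCGG). Windows of 250 bases before RefSeq starts were searched on both strands for these and for TGATGNAA (ATF4 and CEBP composite), TGANTCA (AP-1), GTAAACA (forkhead), CACGTG (E-box) and a longer NF-kB motif. No match overlapped another in the PMAIP1 window. A CRE half-site was in 7.10% of all 35116 windows and a GC box in 42.6%. Of the 8 members with a window, BAD was the other one with a CRE half-site. Whether these sites bear on the signals was not tested. MCL1 and BIK had no window here.

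BIK, a BH3-only gene whose product sits at the endoplasmic reticulum, was the other member past 1.5-fold with ICG-001. In HCT116 its signal was 430.4 in DMSO, 427.8 in C646 and 771.4 in ICG-001 at 12 h. At 96 h it was 410.5 in DMSO, 544.3 in C646 and 538.3 in ICG-001. The 12 h ICG-001 column stood alone, and at 96 h both drugs gave nearly the same signal above DMSO. BIK was 1.79-fold higher than DMSO with ICG-001 at 12 h, with 3.04% of genes as far or farther. At 96 h the log2 ratio over DMSO was 0.39 for ICG-001 and 0.41 for C646, both under 1.5-fold, and for C646 at 12 h it was -0.01. In PANC1 all 6 columns lay between 114.5 and 117.3, under the limit, so no change could be measured there.

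BCL2L1 was the member lowest with C646. It encodes BCL-XL, which binds BAK1, BAX and several BH3-only proteins. In PANC1 its signal was 2800 in DMSO, 2585 in ICG-001 and 1392 in C646 at 12 h. At 96 h it was 2258 in DMSO, 1815 in ICG-001 and 1346 in C646. Both C646 columns lay below the other 4, with a gap of 1.30-fold to the nearest. Against DMSO, BCL2L1 was 2.01-fold lower at 12 h and 1.68-fold lower at 96 h with C646. Of all genes above the limit, 1.70% and 2.28% lay as far from DMSO or farther.

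In HCT116 the signal of BCL2L1 was 1894 in DMSO, 2254 in ICG-001 and 1109 in C646 at 12 h. At 96 h it was 2501 in DMSO, 3183 in ICG-001 and 1853 in C646. C646 lay below DMSO and ICG-001 above it at each time, but the C646 column of 96 h nearly met the DMSO column of 12 h, with a gap of 1.02-fold. The gene was 1.71-fold lower than DMSO with C646 at 12 h, which 1.94% of genes matched or passed. At 96 h its log2 ratio was -0.43. The log2 ratios of ICG-001 over DMSO at 12 and 96 h were 0.25 and 0.35 for HCT116 cells, and for PANC1 cells they were -0.12 and -0.32, none of them 1.5-fold. The DMSO columns alone differed by 0.40 in HCT116 and by -0.31 in PANC1, 96 h over 12 h. In size, the ICG-001 ratios of this gene lay within that difference or close to it. The C646 ratio of -0.43 in HCT116 at 96 h was close to it too. Here and for the members below, the DMSO difference includes time and culture history. It is not an error of ratios taken at the same time.

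The 250 bases before the outer of its RefSeq starts (GRCh38.p14, chr20:31723964-31724213, minus strand) are shown because this member was past 1.5-fold lower with C646 in both lines.
BCL2L1: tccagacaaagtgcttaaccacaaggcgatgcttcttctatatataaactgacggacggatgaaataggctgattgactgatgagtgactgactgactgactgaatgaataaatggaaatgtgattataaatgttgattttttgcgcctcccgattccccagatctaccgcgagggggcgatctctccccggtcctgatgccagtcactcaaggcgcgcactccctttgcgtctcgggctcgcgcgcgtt
None of the 7 motifs was found in this window or in the window before its inner start. The GC content was 50.0% here and 72.8% in the PMAIP1 window, against a median of 58.0% over all windows.

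MCL1, the short-lived pro-survival protein that NOXA opposes, did not reach 1.5-fold in any comparison with DMSO. In HCT116 its signal was 578.5 in DMSO, 743.9 in ICG-001 and 522.4 in C646 at 12 h, and at 96 h it was 762.3, 557.2 and 637.1 in the same order. The ICG-001 column was thus above DMSO at 12 h and below it at 96 h, with log2 ratios of 0.36 and -0.45. The DMSO columns themselves differed by 0.40. In PANC1 the signal was 681.4 in DMSO, 775.2 in ICG-001 and 584.9 in C646 at 12 h, and 674.9, 598.4 and 479.7 at 96 h. The log2 ratio of ICG-001 over DMSO was 0.19 at 12 h and -0.17 at 96 h. With C646 it was below 0 in all 4 comparisons, from -0.49 in PANC1 at 96 h to -0.15 in HCT116 at 12 h. After normexp the PANC1 ratio at 96 h was -0.60, past 1.5-fold. Both C646 columns of PANC1 lay below the other 4, by 1.02-fold.

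BCL2, the founding pro-survival gene of the family, was dim in both lines. In HCT116 its signal ranged from 140.0 in C646 96 h to 159.4 in ICG-001 96 h, and it was above the limit in 4 of 6 columns. The ratio of the brightest over the dimmest column was 1.14. In PANC1 it ranged from 121.6 to 127.6, under the limit in all 6 columns. These signals allow no statement on a change of BCL2.

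BAK1, the pore former among the members, was brightest at 12 h of ICG-001, by less than 1.5-fold over DMSO. In HCT116 its signal was 186.8 in DMSO, 243.0 in ICG-001 and 201.1 in C646 at 12 h, and 187.1, 187.1 and 189.9 at 96 h. The ICG-001 12 h column stood alone, with a log2 ratio of 0.38 over DMSO, and the other 5 lay between 186.8 and 201.1. After normexp that ratio was 0.69, past 1.5-fold. In PANC1 the ICG-001 12 h column was again the brightest at 250.9, against 219.9 in DMSO, a log2 ratio of 0.19. The PANC1 ratios at 96 h were -0.11 with ICG-001 and -0.19 with C646.

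BID links death receptors to mitochondria, since caspase-8 cuts it into an active form. In HCT116 its signal was 311.8 in DMSO, 333.4 in ICG-001 and 362.1 in C646 at 12 h, and 242.7, 319.2 and 261.0 at 96 h. Lowest of the 6 was the DMSO 96 h column, and DMSO at 96 h was below DMSO at 12 h by a log2 ratio of -0.36. The ratio of ICG-001 over DMSO at 96 h, 0.40, was about as large as that difference. After normexp it was 0.61, past 1.5-fold. In PANC1 the 6 columns lay between 297.5 and 335.1, a range of 1.13-fold.

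BAD, which neutralizes BCL2L1 and BCL2 when growth factor signals stop, was dimmest in HCT116 with ICG-001. Its signal there was 274.8 in DMSO, 183.7 in ICG-001 and 243.2 in C646 at 12 h, and 250.3, 229.2 and 240.0 at 96 h. Both ICG-001 columns were the lowest of the 6, the later one by 1.05-fold. The 12 h log2 ratio over DMSO was -0.58, just short of 1.5-fold, and it was past 1.5-fold under each of the other scalings tried (-0.59 after centring, -0.62 with all 12 columns normalized together, -1.03 after normexp). In PANC1 BAD was 282.9 in DMSO, 246.0 in ICG-001 and 249.3 in C646 at 12 h, and 265.0, 329.0 and 245.7 at 96 h. There the ICG-001 column was below DMSO at 12 h, with a log2 ratio of -0.20, and the brightest of all at 96 h, with 0.31.

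BMF and BCL2L11 (BIM) are BH3-only genes that respond to detachment, growth factor loss and stress. BMF lay between 122.3 and 135.7 in HCT116 and between 120.4 and 123.2 in PANC1, under the limit in all 12 columns. BCL2L11 lay between 125.0 and 134.5 in HCT116, under the limit, and between 136.0 and 146.4 in PANC1, just above it. Its PANC1 log2 ratios over DMSO ranged from -0.11 to -0.01. All 4 were under 2 SD of background ratios, so no direction is read from them. How many probes stand behind each gene name, and which transcripts they bind, is not given in the sources used here.

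**Figure D2:**
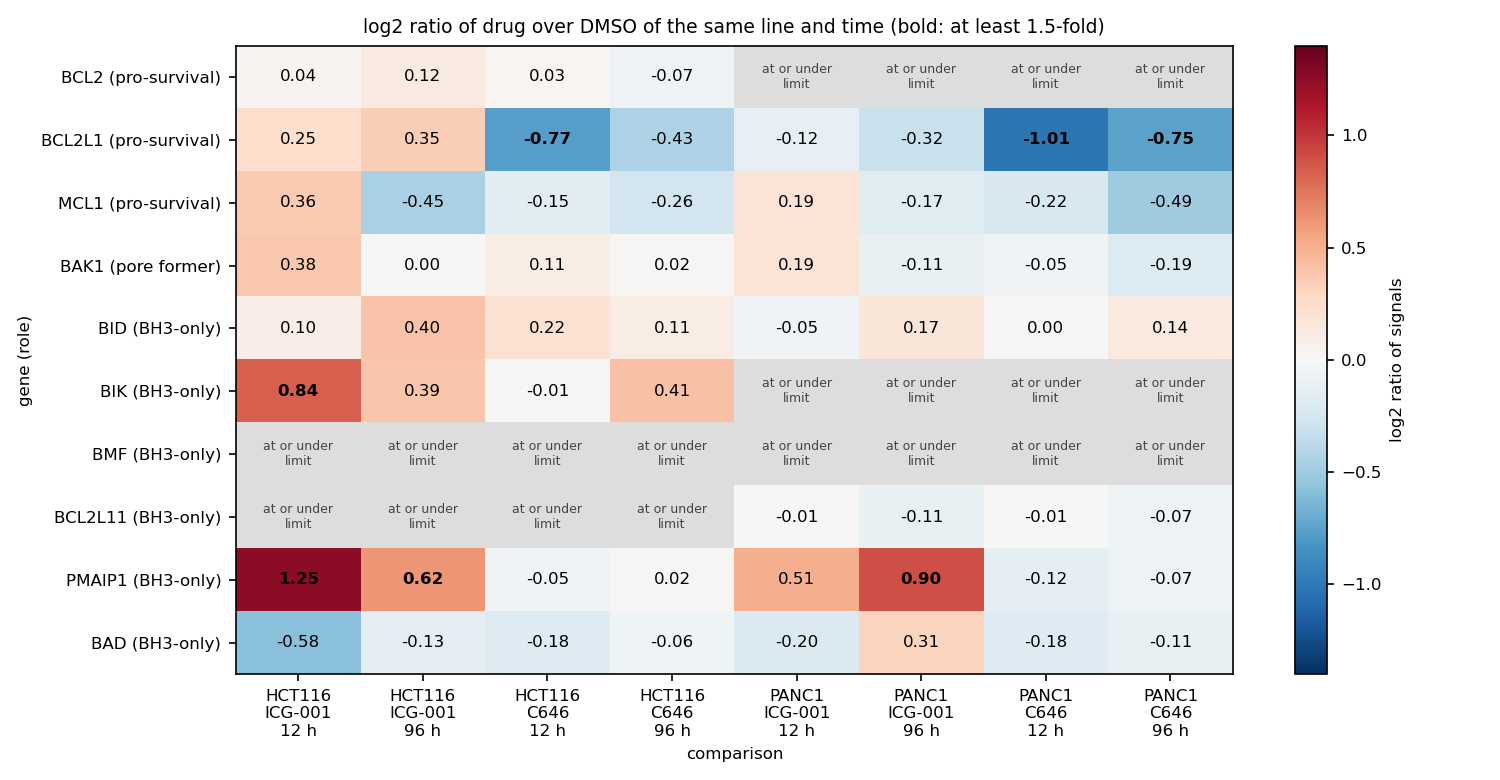
The log2 ratio of each drug column over the DMSO column of the same line and time (color and number) for the 10 members (rows) in the 8 comparisons (columns). Bold marks at least 1.5-fold and gray marks genes at or under the limit in both columns. PMAIP1 was past 1.5-fold in 3 of the 4 ICG-001 comparisons, and BCL2L1 in 3 of the 4 C646 comparisons.

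Counts of members past 1.5-fold were small in all 8 comparisons. With ICG-001 in HCT116, 2 of 8 members above the limit changed at 12 h (PMAIP1 and BIK, both higher), where 8.95% of all 17078 genes above the limit had changed. At 96 h 1 of 8 changed (PMAIP1, higher), against 10.3% of genes changed. With C646 in HCT116, 1 of 8 changed at 12 h (BCL2L1, lower), against 4.26% of genes, and 0 of 8 changed at 96 h, against 3.13%. In PANC1 ICG-001 changed 0 of 7 members at 12 h, against 2.57% of genes, and 1 of 7 (PMAIP1, higher) at 96 h, against 7.41%. C646 in PANC1 changed 1 of 7 (BCL2L1, lower) at 12 h, against 6.73% of genes changed, and the same 1 of 7 at 96 h, against 3.97%. With 7 or 8 members, counts from 0 to 2 do not set the family apart from genes at large. The comparisons of a line and time share their DMSO column.

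The median log2 ratio of members above the limit was 0.31 at 12 h and 0.23 at 96 h of ICG-001 in HCT116, with 7 of 8 and 5 of 8 members above 0. With C646 in HCT116 it was -0.03 and -0.02. In PANC1 the medians were -0.01 and -0.11 for ICG-001, and -0.12 and -0.11 for C646. Over all genes above the limit the medians lay between -0.01 and 0.01.

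Both columns of a drug lying outside the other 4 of a line is a further description of how members fell into groups. In HCT116 2 members, PMAIP1 and BCL2, had both ICG-001 columns on top, which 12.2% of the 19155 genes above the limit in the line also had, and for BCL2 the gap was 1.00-fold. BAD had both at the bottom, as did 11.0% of genes. BCL2L1 had both C646 columns at the bottom in HCT116, as did 6.65% of genes, and no member had both on top, which 6.76% of genes had. In PANC1 PMAIP1 had both ICG-001 columns on top, as did 9.34% of 19337 genes, and no member had both at the bottom, against 8.61%. BCL2L1 and MCL1 had both C646 columns at the bottom in PANC1, as did 13.5% of genes, and no member had both on top, against 13.3%. Shares of this size show that the pattern alone was common.

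ICG-001 and C646 were also compared directly at the same dose and time, which uses no DMSO column. PMAIP1 was higher with ICG-001 in all 4 comparisons, by 2.47-fold at 12 h and 1.52-fold at 96 h in HCT116 and by 1.55-fold and 1.96-fold in PANC1. BCL2L1 was higher with ICG-001 too, by 2.03-fold and 1.72-fold in HCT116 and by 1.86-fold at 12 h in PANC1, while at 96 h in PANC1 its log2 ratio was 0.43. BIK was 1.80-fold higher with ICG-001 in HCT116 at 12 h and level at 96 h, with a log2 ratio of -0.02. MCL1 was under 1.5-fold in all 4, with log2 ratios of 0.51 and -0.19 for HCT116, and for PANC1 0.41 and 0.32. A pro-survival gene and a BH3-only gene thus both stood higher with ICG-001 than with C646.

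The number of members past 1.5-fold between the drugs was 3 of 8 at 12 h and 2 of 8 at 96 h in HCT116, all higher with ICG-001, where 6.24% and 6.41% of genes differed. In PANC1 it was 2 of 7 at 12 h and 1 of 7 at 96 h, all higher with ICG-001, against 2.54% and 6.75% of genes. BAD was lower with ICG-001 in HCT116 at 12 h, by a log2 ratio of -0.40, and higher in PANC1 at 96 h, by 0.42. Both were past 1.5-fold after normexp, at -0.74 and 0.63, as was MCL1 in HCT116 at 12 h, at 0.60.

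**Figure D3:**
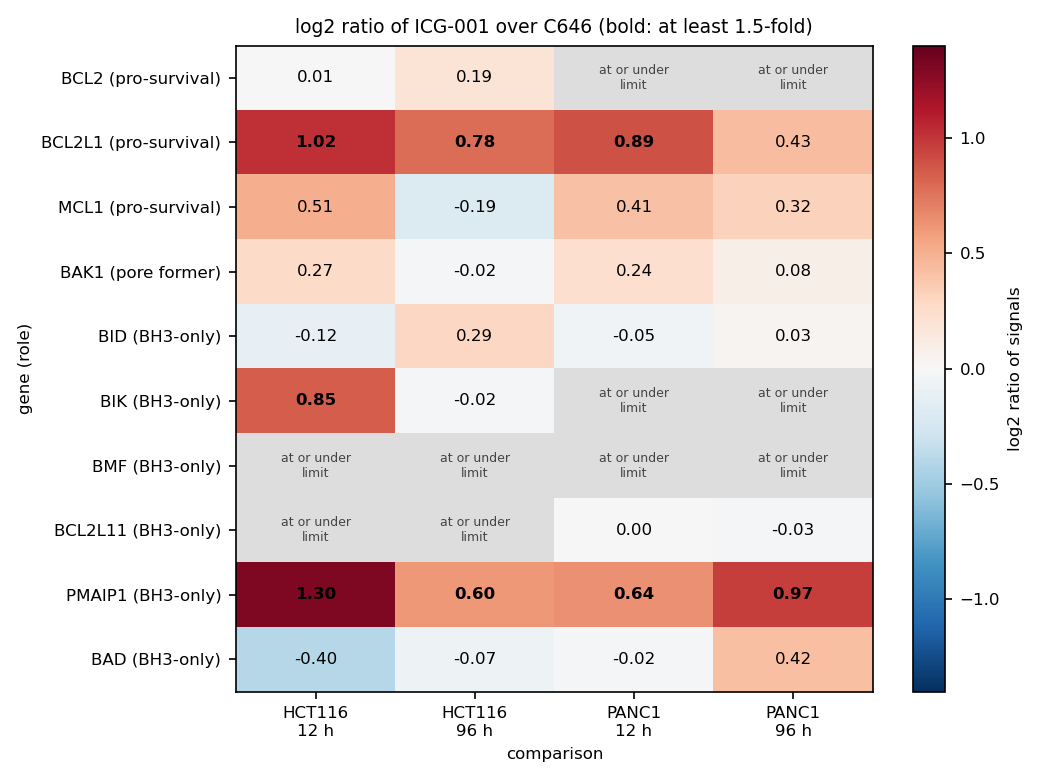
The log2 ratio of ICG-001 over C646 (color and number) for the 10 members (rows) at 12 and 96 h in each line (columns). Bold marks at least 1.5-fold and gray marks genes at or under the limit in both columns. All 8 bold values, of PMAIP1, BCL2L1 and BIK, were above 0.

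Without a drug, no member differed by 1.5-fold between the time points. Between DMSO 96 h and DMSO 12 h in HCT116, the log2 ratio was 0.40 for BCL2L1 and for MCL1, 0.33 for PMAIP1 and -0.36 for BID. None reached 1.5-fold, and 3.21% of genes did. In PANC1 the ratio was -0.31 for BCL2L1 and -0.13 for BID, and 1.32% of genes reached 1.5-fold. Under C646 in HCT116 BCL2L1 was 1.67-fold higher at 96 h than at 12 h, where 7.11% of genes differed. Under ICG-001 in HCT116 the ratio of 96 h over 12 h was -0.52 for BIK, 0.50 for BCL2L1 and -0.42 for MCL1, with 0 of 8 members at 1.5-fold, against 6.69% of genes. Under ICG-001 in PANC1 it was 0.50 for PMAIP1 and -0.51 for BCL2L1, again with 0 members at 1.5-fold, against 4.01% of genes. Under C646 in PANC1 0 members reached it, against 0.477%.

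The rest of the family was read from a list of 13 further genes, of which 9 or 10 were above the limit per comparison. With ICG-001 in HCT116 2 of 10 were lower at 12 h, and at 96 h 1 of 9 was higher and 2 lower, with list medians of 0.14 and 0.27, against 8.95% and 10.3% of all genes changed. The 2 lower genes were the same at both times, BNIP3 (-0.66 and -1.22) and BNIP3L (-1.02 and -0.75), which direct mitochondria to autophagy and are induced in hypoxia. Their DMSO signals rose with time, from 2606 to 4677 for BNIP3 and from 851.5 to 1565 for BNIP3L. BAX, the partner of BAK1 in the pore, was the gene that rose at 96 h, from 196.5 in DMSO to 301.9 in ICG-001, and it was 289.0 in C646. In PANC1 BAX lay between 176.9 and 197.3 in the 6 columns. HRK, a BH3-only gene, went in PANC1 from 133.8 in DMSO, under the limit, to 222.8 in ICG-001 at 96 h, which is at least 1.62-fold. BBC3 (PUMA), a BH3-only gene that binds all pro-survival members, stayed under 1.5-fold in all 8 comparisons, with log2 ratios from -0.16 to 0.36. In PANC1 the list medians were 0.08 and -0.01 with ICG-001. With C646 0 of 9 further family genes changed in any of the 4 comparisons, against 3.13% to 6.73% of all genes. Their medians lay between -0.10 and -0.04. BAX, HRK and BBC3 were picked out after their values were seen.

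**Figure D4:**
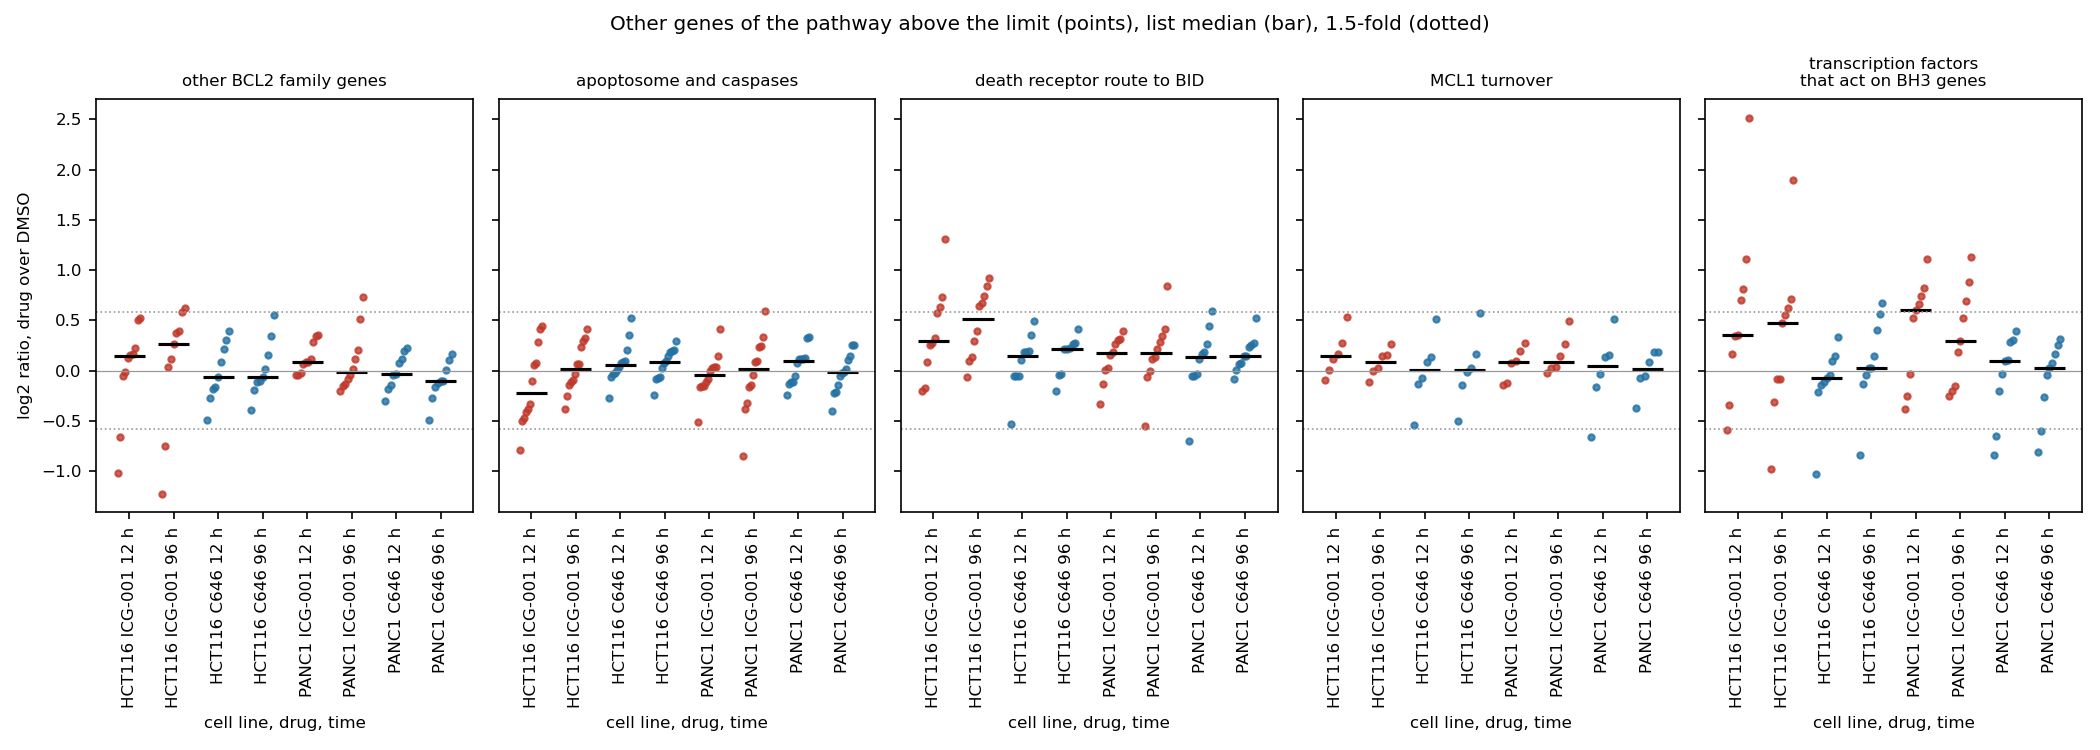
The log2 ratio of drug over DMSO (y axis) of the genes above the limit in 5 lists around the BCL2 family (panels) in the 8 comparisons (x axis, ICG-001 red and C646 blue). Points are genes, bars are list medians and dotted lines mark 1.5-fold. The points farthest up are DDIT3 with ICG-001 in HCT116, at 2.52 and 1.90.

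Downstream of the pore, 12 genes of the apoptosome and the caspases were above the limit in all 8 comparisons and moved little. With ICG-001 at 12 h in HCT116 their median was -0.22 and 1 of 12 was lower, against 8.95% of all genes changed. This was APAF1, which forms the apoptosome (402.6 in DMSO and 233.5 in ICG-001). ENDOG, a mitochondrial nuclease, was lower and DFFA, an inhibitor of a nuclease, higher in PANC1 at 96 h of ICG-001, by -0.85 and 0.60, where 7.41% of all genes changed. In the other 6 comparisons 0 of 12 changed, where 2.57% to 10.3% of all genes did. These genes too were named after their values were seen.

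Upstream of BID, some genes of the death receptor route were higher with ICG-001 in HCT116. Of 10 genes above the limit, 3 were higher at 12 h and 5 at 96 h and 0 lower, with medians of 0.30 and 0.52, where 8.95% and 10.3% of all genes changed in either direction. TNFRSF10B (the TRAIL receptor DR5) went from 608.4 in DMSO to 1505 in ICG-001 at 12 h and from 749.3 to 1423 at 96 h, and its C646 signals were 587.4 and 901.8. FADD, the adaptor that recruits caspase-8, was higher by 0.63 and 0.75, and CFLAR, which blocks caspase-8, by 0.73 and 0.84. The genes that joined them at 96 h were TNFRSF1A and RIPK1, at 0.64 and 0.67. With C646 in HCT116 the ratios at 12 and 96 h were 0.49 and -0.03 for FADD and 0.19 and 0.41 for CFLAR. CASP8 lay near the limit in HCT116, at 144.7 in DMSO and 154.0 in ICG-001 at 12 h, and 136.1 and 145.3 at 96 h. CASP10 was under the limit in all columns. In PANC1 0 of 10 changed at 12 h and 1 of 10 (CFLAR) was higher at 96 h of ICG-001, by 0.84. The shares of all genes changed there were 2.57% and 7.41%. The median was 0.18 at both times. With C646 in HCT116 0 genes of this list changed at 12 or 96 h, against 4.26% and 3.13% of all genes. In PANC1 with C646 1 was higher (CFLAR, 0.60) and 1 lower (TNFRSF1A, -0.70) at 12 h, against 6.73% of all genes. At 96 h 0 changed there, against 3.97%. The C646 medians of this list were also above 0, at 0.14 and 0.22 in HCT116 and 0.14 and 0.15 in PANC1. Among 6 genes of MCL1 turnover, 0 changed in 7 comparisons, where 2.57% to 10.3% of all genes did. The 1 gene changed, HUWE1 (a ubiquitin ligase for MCL1), was lower with C646 in PANC1 at 12 h, by -0.66. In that comparison 6.73% of all genes changed. The list medians lay between 0.01 and 0.14. TNFRSF1A, RIPK1, CASP8, CASP10 and HUWE1 were picked out after their values were seen.

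Of 9 measured transcription factors known to act on BH3 genes, 4 were higher at 12 h and 3 at 96 h of ICG-001 in HCT116, with medians of 0.35 and 0.47, against 8.95% and 10.3% of all genes changed in either direction. In PANC1 5 were higher at 12 h and 3 at 96 h of ICG-001, and 0 lower, with medians of 0.61 and 0.29, against 2.57% and 7.41% of all genes. With C646 1 (DDIT3) was higher at 96 h in HCT116, and 0 were higher in the other 3 comparisons. Shares of all genes changed in either direction with C646 ran from 3.13% to 6.73%. DDIT3 (CHOP) was 5.73-fold and 3.73-fold higher than DMSO in HCT116 and 1.77-fold and 2.19-fold higher in PANC1 at 12 and 96 h, while its C646 ratio reached 1.5-fold only in HCT116 at 96 h, at 1.59-fold. In PANC1 FOXO3 was higher by 0.61 and 0.89 and ATF3 by 0.74 and 0.69. JUN was higher by 0.81 and 0.63 in HCT116. ATF4 was 2.17-fold higher in PANC1 at 12 h of ICG-001, but DMSO 96 h was also 1.75-fold higher than DMSO 12 h, and this gene too was picked out after its values were seen.

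The rows most like the members of widest range were found over the 12 columns, after the mean log2 signal of each line was removed, among 17096 or 17097 rows above the limit in both lines. They are a description, since the columns of a line share normalization and treatment. For PMAIP1 they were CLIC4, DNTTIP1 and TSC22D3, with Pearson's r of 0.98, 0.97 and 0.97. For BCL2L1 they were MYL12A, VAMP2 and ARHGEF5, with r of 0.96, 0.95 and 0.94. For BIK they were DHRS2, DNAJB9 and GSTZ1, with r of 0.97, 0.96 and 0.95. BIK lay at background in PANC1, so its own variation came almost only from the 6 HCT116 columns. The PANC1 variation of the other rows still entered r, which was taken over all 12 columns.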

How the data were processed

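Total RNA of 12 groups, 1 column each, was hybridized by the authors to Illumina HumanHT-12 v4 BeadChips. Each deposited value is a linear bead intensity for 1 gene name. The authors applied quantile normalization in GenomeStudio, subtracted no background, and averaged 2 arrays per column or 3 for PANC1 ICG-001 12 h. The GenomeStudio version and the genome build are not given in the sources used here. Background left in the signal makes ratios of dim genes understate a change. Single arrays and detection p-values were not used here, and the number of arrays limits the precision.

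Sorted log2 values differed by 0.0037 to 0.0093 on average between columns of a line and by 0.063 to 0.066 between lines. Log2 signals were subtracted between columns. A gene entered a comparison when above the detection limit (the upper 1% point of a normal curve with its centre at the background peak and the SD of values below that peak) in at least 1 of its columns, and counted as changed at 1.5-fold. All 10 members carried a current RefSeq symbol (GRCh38.p14), and the promoter windows are RefSeq's. All members were named. From each list, genes changed 1.5-fold in the same direction at both times were named, at most 3 per drug and line by their 96 h ratio, and for the 3 members of widest range within a line the 3 rows of highest Pearson's r. Members and lists were chosen with earlier results of these data known. Some named genes and the lower calls of the transcription factor list are not reported here.

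Alternatives were a fold of 1.2 or of 2, keeping all dim genes, placing the limit at 5 SD, correcting background by normexp (offset 16, then quantiles matched per line), subtracting the median log2 ratio, and matching quantiles over all 12 columns. No other column of sample values was present (0 left unused). The procedure was run on simulated data in which genes well above the limit were changed 2-fold. That setting does not test changes near 1.5-fold or dim genes. Python 3.11.15 (numpy 2.4.6, pandas 2.3.3, matplotlib 3.10.9) and limma 3.58.1 in R 4.3.3 were used.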

Additional observations from a re-analysis of the deposited data

How the results depend on the processing

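The choice of fold moved the counts of changed members most. At 1.2-fold, 5 members changed at each time with ICG-001 in HCT116, 2 with C646 in HCT116 at 96 h, 1 and 3 with ICG-001 in PANC1 at 12 and 96 h, and 2 with C646 in PANC1 at 96 h. At 2-fold, 1 member changed with ICG-001 in HCT116 at 12 h and 0 at 96 h, 0 with C646 in HCT116 at 12 h, and 0 in PANC1 at 96 h with either drug. After normexp, 4 and 2 members changed with ICG-001 in HCT116 at 12 and 96 h, 1 with ICG-001 in PANC1 at 12 h and 2 with C646 in PANC1 at 96 h. These counts are out of 8 members above the limit in HCT116 and 7 in PANC1. The share of all genes past each of these settings is not given here. The counts therefore do not set the members apart from genes at large. No setting turned the sign of a member past 1.5-fold. Among 90 log2 ratios of members, 8 crossed 1.5-fold after normexp, 1 after centring and 1 with all 12 columns normalized together. The last both were BAD in HCT116 at 12 h of ICG-001. After normexp 45 of the 90 moved by at least the SD of background ratios, and 45 by less. The sign of a ratio changed for 2 after normexp and for 2 with all 12 columns normalized together.

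List medians moved by more than the SD of background ratios in some settings. Without a filter on dim genes, the further family genes had medians of 0.016 and 0.11 with ICG-001 in HCT116 at 12 and 96 h, the death receptor list 0.39 in HCT116 at 96 h of ICG-001, and the transcription factors 0.059 in HCT116 at 96 h and 0.53 and 0.18 in PANC1 at 12 and 96 h of ICG-001 and -0.030 in PANC1 at 12 h of C646. With the limit at 5 SD the last was again -0.030, and the death receptor list had 0.64 in HCT116 at 96 h of ICG-001. After normexp, ICG-001 medians at 12 h in HCT116 were 0.24 for further family genes, -0.34 for apoptosome genes and 0.44 for death receptor genes. The death receptor list had 0.76 and the transcription factors 0.63 at 96 h of ICG-001 in HCT116, and the death receptor list 0.28 with C646 at 12 h. In PANC1 with ICG-001 the normexp medians were -0.13 for apoptosome genes and 0.69 for transcription factors at 12 h, and 0.37 for death receptor genes and 0.51 for transcription factors at 96 h. With C646 at 12 h they were 0.25 and 0.22 for the latter lists. The cause of these moves was not tested. No paired analysis was possible because the numbered replicates of each group were averaged into 1 column, which carries no replicate number. Replicates could not be left out for the same reason. BCL2 in both lines, BIK in PANC1, BCL2L11 and BMF lay at or near background, which limits what can be read from them.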
